A study of Canis lupus familiaris with 2 samples.

Results

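The genes described here were 33 members of the KEGG terms MAPK signaling pathway and Ras signaling pathway, taken from a comparison table of 1729 rows that set a doxorubicin-resistant canine lymphoma line against its parent. CLBL-1 is a canine diffuse large B-cell lymphoma line, labelled as tumor stage IV from a lymph node, and was grown in RPMI medium with 10% fetal bovine serum and 1% penicillin G/streptomycin. CLBL-1 8.0 is the doxorubicin-resistant form of CLBL-1, kept in the same medium with 8 µM doxorubicin hydrochloride added. Each line was represented by 1 sample of poly-A-selected RNA, from a protocol that names 3 dishes without saying whether they were pooled, so the differences below carry no replicate error and no test between the lines was possible. The labels do not say whether the drug was removed before RNA extraction, so exposure to the drug and resistance to it cannot be told apart.

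The authors' deposited table of pathways listed 28 genes for the MAPK term and 31 for the Ras term, 8 of them in both, and all 51 distinct genes had a row in the comparison table. The rule then left out 18 of the 51. Genes of the Endocytosis term (RAB5B, HSP70, TGFBR2 and PLD2), of the lysosomal membrane (GNB2) and of the Golgi apparatus (PLD2 and PLA2G4A) were left out. So were those on chromosome 4 (GNG4 and DUSP1), chromosome 6 (GNB2, RAC1, MAPK8IP3 and PRKACB) and chromosome 36 (MAP3K20 and ATF2). PLD2, MAPK7 and MAP2K3 fell in the chromosome 5 stretch from 21.9 to 57.5 Mb, and RAC2, PIK3CD and BCL2L1 were left out by name. MAP2K3 was the term gene nearest to the upper end of that stretch from within, at 36.04 in CLBL-1 8.0 against 58.4 in CLBL-1, and PIK3CD, beyond that end, was at 3.34 against 10.1. No term gene belonged to the Lysosome term, to intracellular protein transport or to chromosome 32.

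Ras proteins are small GTPases that switch between an active GTP-bound and an inactive GDP-bound state. Exchange factors turn them on and GTPase activating proteins turn them off. Active Ras recruits effectors, among them the RAF kinases that start the ERK branch of the mitogen-activated protein kinase (MAPK) cascades, the phosphoinositide 3-kinases (PI3K) and the exchange factors of Ral. Parallel cascades end in the kinases JNK and p38, which respond to stress and cytokines. Dual-specificity phosphatases (DUSPs) remove phosphate from ERK, JNK and p38, and transcription factors such as ELK1, SRF and JUND act downstream. In B cells these routes lie below the antigen receptor and cytokine receptors.

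The members differed between the lines in both directions. Of the 33, 25 (75.8%) had a higher value in the resistant line, where 65.2% of all 1729 rows did, and 8 (24.2%) had a lower value, against 34.8% of all rows. The rows were a selection by the authors, each with a deposited log2 fold of at least 0.67 in absolute size or a value of 0 in 1 line, and the rule removed whole chromosomes that earlier results of these data had singled out, so these shares describe the selection and are not evidence about the pathways. Values are abundances with no stated unit, which may be FPKM or TPM, and levels of different genes are not compared with each other. Where a pair of values is given, the resistant line, CLBL-1 8.0, comes first. Differences are log2((resistant + 1)/(parental + 1)), a scale on which changes of genes with low values come out smaller than they are. On it the members ranged from -2.14 to 2.18, their median was 0.82 and their mean 0.54, and the median over all rows was 0.73. At least a 2-fold difference on this scale was reached by 11 members in the higher direction, against 24.1% of all rows, and by 3 in the lower direction, against 14.4% of all rows. That split depends on the scaling and the pseudocount: with the upper quartiles of the lines made equal it was 5 higher and 5 lower (15.2% each), where 12.5% of all rows were higher and 31.0% lower. With differences centred on the median of all rows it was 1 higher (3.03%) and 8 lower (24.2%), against 5.26% and 34.8% of all rows. With a pseudocount of 5 it was 4 higher (12.1%) and 1 lower (3.03%), against 11.4% and 8.91% of all rows. No member was listed at 0 in either line, and 10 of the 33 were below 10 in both. No row of the table was below 5 in both lines. GAB1, with 5.80 as its larger value, came closest to that among the members.

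**Figure D1:**
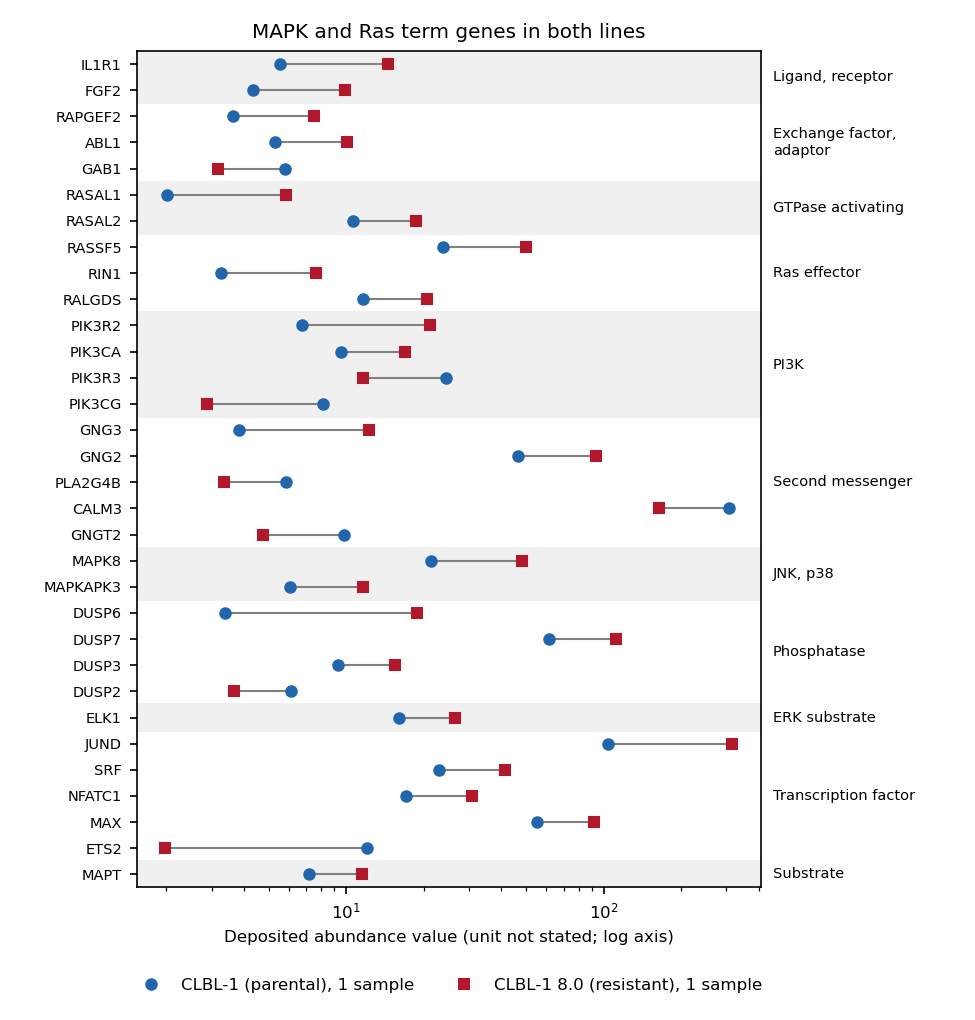
Deposited abundance of 32 of the 33 members (log axis, unit not stated) in CLBL-1 (blue circles) and CLBL-1 8.0 (red squares), 1 sample each, grouped by role. The red square lies to the right of the blue circle for 24 genes and to the left for 8, and DUSP6 and ETS2 have the widest gaps.

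The extremes among the members were a phosphatase and a transcription factor. Of the term genes that the rule left out, RAC2 had a lower difference than the lowest member and PLA2G4A a higher one than the highest. DUSP6, a cytoplasmic phosphatase that acts on ERK and is itself induced by ERK signalling, was at 18.8 in CLBL-1 8.0 against 3.38 in CLBL-1. That is 5.58-fold higher as deposited, or 2.18 on the log2 scale with the pseudocount, and it ranked 50 of 1729 from the highest difference. DUSP6 has gene ID 482594 and lies at chr15:30322472-30327221 (coordinates as deposited, build CanFam3.1 per the submitters' processing notes). At the other end, ETS2, a transcription factor of the ETS family that Ras signalling activates, was at 1.98 in CLBL-1 8.0 against 12.1. It was 6.11-fold lower as deposited and -2.14 on the log2 scale with the pseudocount, and it ranked 48 from the lowest difference. ETS2 has gene ID 487761 and lies at chr31:33846821-33861394. Both differences depend on how the low value is treated: with a pseudocount of 5 they became 1.51 for DUSP6 and -1.29 for ETS2.

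The other phosphatases were closer to their parental levels. DUSP7, an ERK phosphatase of the same subfamily as DUSP6, was at 112 in CLBL-1 8.0 against 61.3. DUSP3, a small phosphatase known to act on ERK and JNK, was at 15.5 against 9.31. DUSP2, a nuclear phosphatase induced in activated lymphocytes, was the lower member of the group, at 3.68 against 6.10. Among the 4 phosphatases that were members, 3 (75%) were therefore higher and 1 was lower, where 65.2% of all rows were higher. DUSP1, a term gene left out because it lies on chromosome 4, was lower, at 8.71 against 14.05. PTPRQ, on the same role list but outside the terms, was lower too, while DUSP18, outside both, was higher. The log2 differences of the 4 members had a median of 0.77 and a range from -0.60 to 2.18.

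**Figure D2:**
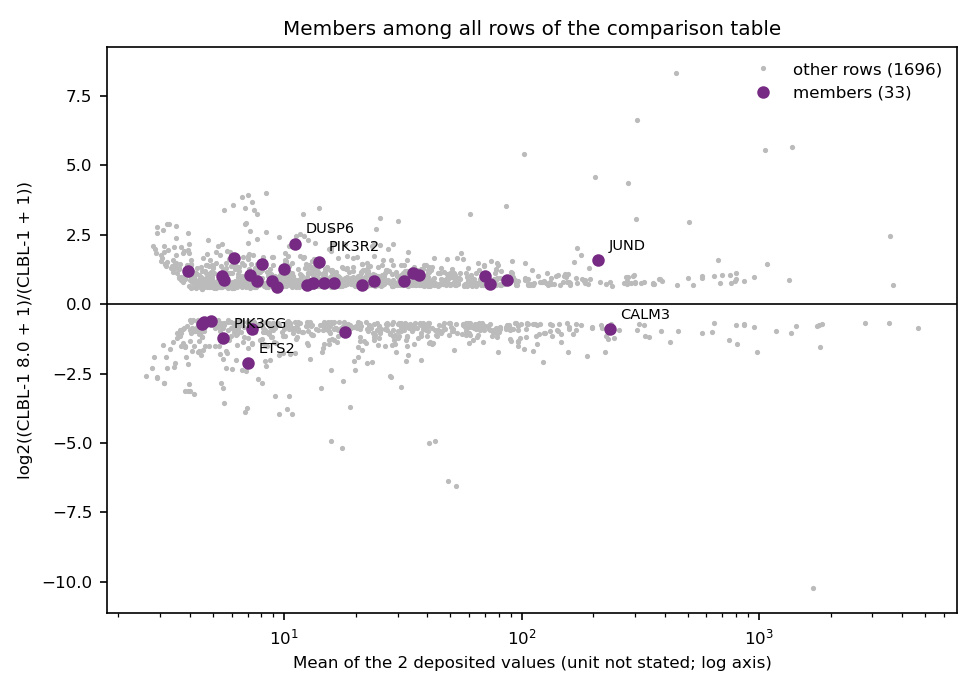
Difference between the lines, log2((CLBL-1 8.0 + 1)/(CLBL-1 + 1)), against the mean of both deposited values (log axis) for the 33 members (purple) and the other 1696 rows (grey), 1 sample per line. Members lie between -2.14 and 2.18, inside the range of all rows, and no row lies in a band around 0, since every deposited log2 fold was at least 0.67 in absolute size.

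At the top of the pathway, 2 members encode a ligand and a receptor. Both had higher values in CLBL-1 8.0, as did 65.2% of all rows. FGF2, a growth factor that signals through FGF receptor tyrosine kinases, was at 9.94 against 4.35, a log2 difference of 1.03. IL1R1, the receptor through which interleukin 1 activates JNK, p38 and NF-kB, was at 14.5 against 5.51, a log2 difference of 1.25. In the reference gene table of assembly UU_Cfam_GSD_1.0, FGF2 overlaps NUDT6, which had no overlapping row here. No source used here states the strand handling, so reads of these neighbours may not have been separable.

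Proteins that relay receptor signals to Ras and Rap went both ways. GAB1, a docking protein that gathers PI3K and the phosphatase SHP2 at receptors, was lower in the resistant line, at 3.17 against 5.80. ABL1, a non-receptor tyrosine kinase, was at 10.1 against 5.29, a log2 difference of 0.82. RAPGEF2, an exchange factor for the GTPase Rap, was at 7.51 against 3.63, a log2 difference of 0.88. The deposited position of ABL1 overlaps the row LOC111097516, which was also higher, at 5.95 against 2.17, so part of either value may be shared.

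Among the genes that switch Ras off, the GTPase activating proteins RASAL1 and RASAL2 had higher values in CLBL-1 8.0. So did 65.2% of all rows. RASAL1, a calcium-responsive Ras GTPase activating protein, was at 5.84 against 2.01, a log2 difference of 1.19. RASAL2, from the same family, was at 18.8 against 10.6, a log2 difference of 0.77. The parental value of RASAL1 was low, and with a pseudocount of 5 its difference was 0.63.

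The 3 members that act as effectors of active Ras were also higher, as were 65.2% of all rows. RASSF5, which binds active Ras and Rap and regulates lymphocyte adhesion, was at 50.1 in CLBL-1 8.0 against 23.8, a log2 difference of 1.05. RIN1, a Ras effector that activates the endosomal GTPase RAB5, was at 7.62 against 3.27, a log2 difference of 1.01. RALGDS, through which Ras activates Ral, was at 20.7 against 11.7, a log2 difference of 0.77. The first 2 differences sat just above the 2-fold limit of 1 on this scale, and they were below it, at 0.73 and 0.76, when the upper quartiles were equalised. None of the genes of MEK1, MEK2, ERK1 or ERK2 was in the rows analysed here.

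The 4 PI3K members split evenly. PIK3R2, the regulatory subunit p85-beta, was at 21.2 in CLBL-1 8.0 against 6.71, which is 3.16-fold higher as deposited. PIK3CA, the catalytic subunit p110-alpha, was at 16.9 against 9.56. The lower members were PIK3R3, the regulatory subunit p55-gamma, at 11.6 against 24.4, and PIK3CG, the catalytic subunit p110-gamma that works below G protein-coupled receptors in blood cells, at 2.89 against 8.15. Log2 differences were 1.53 for PIK3R2, 0.76 for PIK3CA, -1.01 for PIK3R3 and -1.23 for PIK3CG. Thus 1 regulatory and 1 catalytic subunit were higher and 1 of each was lower, where 65.2% of all rows were higher. The even split holds for the members only. PIK3CD, another catalytic subunit and a term gene left out by name, was lower, at 3.34 against 10.1. The gene ID of PIK3R3, 100856339, carries a placeholder name in the reference gene table, whereas the other 32 members had the same symbol there.

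G protein and second messenger genes also split. GNG2 and GNG3 encode gamma subunits of heterotrimeric G proteins. GNG2 was at 93.5 in CLBL-1 8.0 against 46.3, and GNG3 at 12.3 against 3.85, a log2 difference of 1.46. GNGT2, another gamma subunit, was lower, at 4.77 against 9.85. CALM3, which encodes calmodulin, the calcium sensor, was at 164 against 307, a log2 difference of -0.90. Reads of CALM3 may have been shared with near-identical copies. PLA2G4B, a cytosolic phospholipase A2, was at 3.35 against 5.85. In the reference gene table GNG3 overlaps BSCL2 and PLA2G4B overlaps SPTBN5, so reads of these pairs too may not have been separable. The same holds for DUSP3 with CFAP97D1 and for RASAL2 and RALGDS with unnamed protein-coding genes, which makes 6 members with a protein-coding overlap. Counting noncoding RNA and pseudogene entries as well, 13 of the 33 members overlap another gene there, IL1R1, PIK3R3, PIK3CG, ABL1, RASSF5 and SRF among them.

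Of the kinases below the stress and cytokine branches, both members were higher, where 65.2% of all rows were. Term genes of these branches that were left out by position went both ways: MAP2K3 and MAP3K20 were lower and MAPK8IP3 was higher. MAPK8, which is JNK1, was at 48.2 in CLBL-1 8.0 against 21.4, a log2 difference of 1.13. MAPKAPK3, a kinase activated by p38, was at 11.6 against 6.03, a log2 difference of 0.85.

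Nuclear targets of the cascades that remained as members were mostly higher, and ETS2 was lower. JUND, a subunit of the AP-1 transcription factor and a substrate of JNK, was at 316 in CLBL-1 8.0 against 104, a log2 difference of 1.59. SRF, which drives immediate early genes together with ELK1, was at 41.2 against 22.9. ELK1, the ETS factor that ERK phosphorylates, was at 26.5 against 16.0, and its difference of 0.69 was below the median of all rows. MAX, the partner of MYC, was at 92.2 against 55.02. NFATC1, a calcineurin-dependent factor of activated lymphocytes, was at 30.7 against 17.04. Among the 5 members of the transcription factor list, to which ELK1 does not belong, 4 (80%) were higher, where 65.2% of all rows were. ETS2 was lower, and the median log2 difference of these members was 0.81. ATF2, a term gene left out because it lies on chromosome 36, was also lower, at 5.76 against 13.9. The last member, MAPT, the microtubule-binding protein tau and a substrate of these kinases, was at 11.5 against 7.16. Its difference as deposited, 0.68, was the smallest in absolute size among the members, where the smallest among all rows was 0.67.

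**Figure D3:**
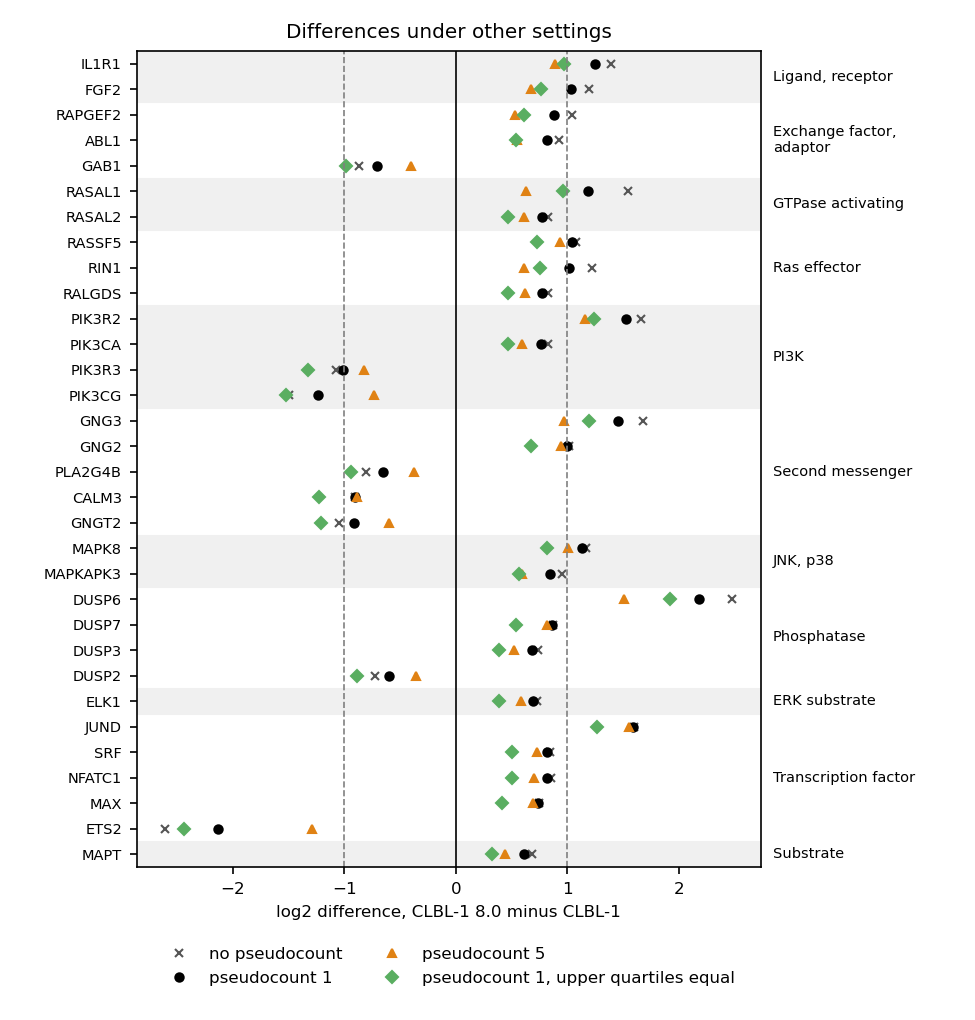
Difference between the lines for 32 of the 33 members without a pseudocount, with a pseudocount of 1 or 5, and with the upper quartiles of the lines made equal; 1 sample per line, dashed lines at a 2-fold difference. No gene shown changes sign, which these settings could not bring about in rows selected by size of fold. Most of those above 1 with a pseudocount of 1 fall below it with a pseudocount of 5.

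The split within the MAPK term depended on the exclusions, and that within the Ras term hardly did. Among all rows 65.2% were higher, and their median log2 difference was 0.73. Among members of the MAPK term, 14 of 16 (87.5%) were higher while DUSP2 and PLA2G4B were lower, and the median log2 difference was 0.83. Among members of the Ras term, 14 of 21 (66.7%) were higher and 7 were lower, and the median was 0.77. The terms share 4 members, FGF2, MAPK8, ELK1 and PLA2G4B, and the difference between them was not tested. Before the exclusions the terms were close, with 20 of 28 genes (71.4%) higher in the MAPK term and 21 of 31 (67.7%) in the Ras term. In the authors' deposited table the Ras term had an enrichment p of 0.00391, in place 8 of 50 KEGG terms, and the MAPK term a p of 0.0873, in place 46, over the genes before any exclusion. The 18 genes left out were more evenly split, with 10 higher (55.6%) and 8 lower. With them included, 35 of 51 term genes (68.6%) were higher.

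Other KEGG terms of the deposited table reused these genes. Of the 48 other terms, 40 held at least 1 member, and 36 of them held all 4 PI3K members, which stood in no other. MAPK8 was in 19 other terms. Pathways in cancer held 13 members, which is 39.4% of the members and 26.5% of that term. Of these 13, 10 were higher, as were 26 of the 36 other genes of the term and 65.2% of all rows. The B cell receptor signaling term held 5 members, PIK3R2, PIK3CA, PIK3R3, PIK3CG and NFATC1, of which 3 were higher and 2 lower. Of the 6 other genes of that term, 3 were higher. In contrast, 11 members were in none of the 48 other terms.

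The members lay on 18 chromosomes, and most had other listed rows nearby. For 27 members at least 1 other row had its midpoint within 1 Mb. All such rows shared the member's direction for 13 members, none did for 3, and 6 members had no row within that distance, DUSP6 and ETS2 among them. The agreement of RAPGEF2, FGF2, MAPK8, RASSF5 and RASAL2, and the disagreement of PLA2G4B and RALGDS, rest on 1 row each. The rows near ABL1 include LOC111097516, which overlaps it. Around the higher members, 61 of 79 neighbouring rows (77.2%) were higher, where 65.2% of all rows were. Around the lower members, 8 of 12 (66.7%) were lower, where 34.8% of all rows were. Rows near several members count more than once in these sums, neighbouring members are included, and the sums were not tested. JUND (gene ID 609409, chr20:44737021-44738932) and PIK3R2 (gene ID 609956, chr20:44826037-44838449), in places 3 and 4 of the members by difference, lie 87.1 kb apart with no row between them. For each of them, 5 of 7 rows within 1 Mb were higher, the other member of the pair included, and 47 of 58 rows of chromosome 20 were higher. All 7 rows within 1 Mb of MAPKAPK3 and all 4 near DUSP7, also on chromosome 20, were higher. PIK3CG and CALM3 each had 2 neighbouring rows, all lower as they were. RASAL1, by contrast, was higher with 2 of 2 neighbouring rows lower. The part of position in the differences was not tested.

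**Figure D4:**
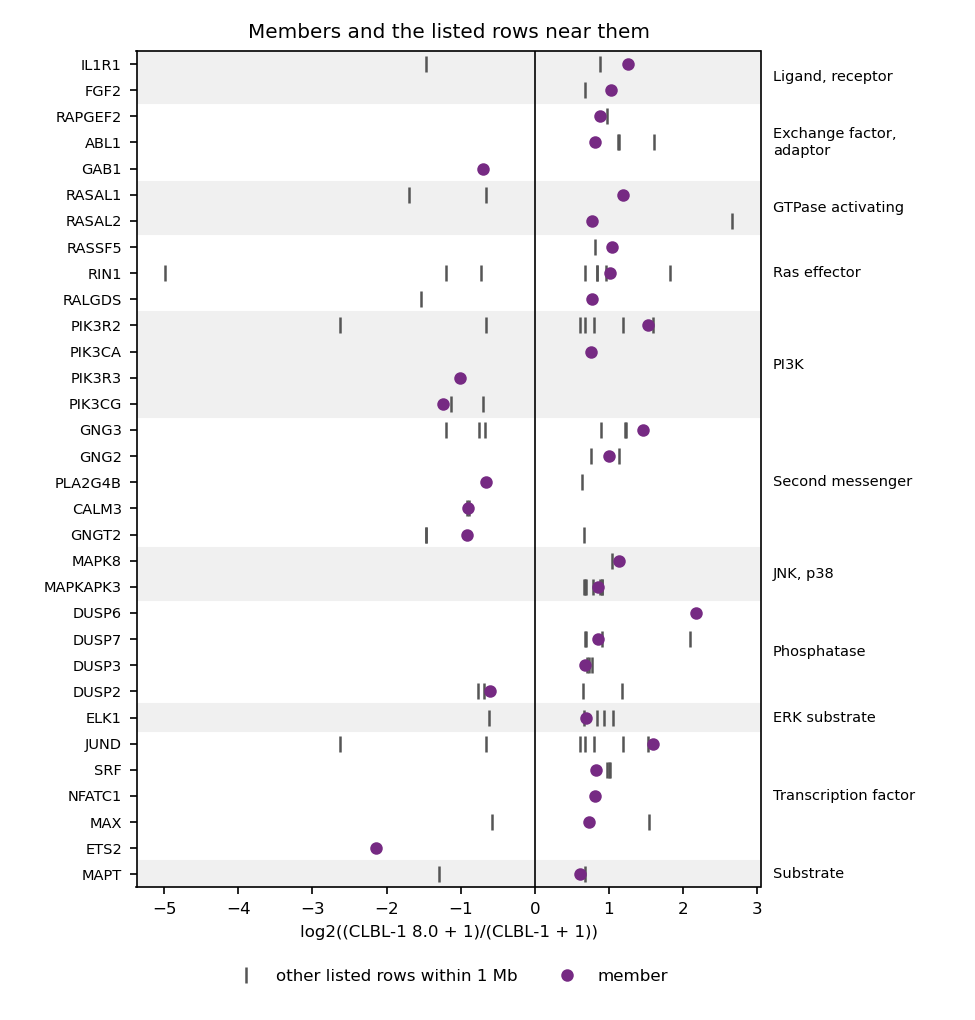
Difference between the lines for 32 of the 33 members (purple circles) and for the other listed rows whose midpoint lies within 1 Mb of it (grey ticks), 1 sample per line, grouped by role. Rows near MAPKAPK3 and DUSP7 lie to the right of 0 like the genes themselves, rows near RASAL1 lie on the other side, and DUSP6 and ETS2 have no tick.

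Genes of the pathways that were not in the deposited terms added little. Of 365 symbols sorted by role, 53 had a row, and all but 2 of these were genes of the terms. The exceptions were PTPRQ, a phosphatidylinositol and tyrosine phosphatase, at 5.28 in CLBL-1 8.0 against 9.07, and CALML4, a calmodulin-like protein, at 2.88 against 14.5. A further list of 57 Ras and MAPK regulators had 5 rows, all higher in the resistant line, with a median log2 difference of 1.15. Of all rows 65.2% were higher, with a median of 0.73. CBL, among these 5, belongs to the Endocytosis term, whose genes the rule leaves out. PEBP1, a phosphatidylethanolamine-binding protein, was at 1259 against 634.9. ERRFI1, an inhibitor of the EGF receptor, was at 16.5 against 6.35, and CBL, a ubiquitin ligase that turns off receptor kinases, was at 31.5 against 13.4. DUSP18, another dual-specificity phosphatase, was at 6.03 against 2.18, and RAP2A, a small GTPase, was at 23.5 against 13.3. Of 32 genes known to respond to ERK signalling, apart from DUSP6, 2 were listed, 1 higher and 1 lower. The lower one, FOSL2, an AP-1 subunit, was at 9.58 against 15.4.

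None of 8 B cell markers had a row, so the labelled cell type was not checked by them. Of 8 T and NK cell markers 2 were listed, 1 higher and 1 lower, of 5 myeloid markers 1 was listed and higher, and of 5 stromal, endothelial and epithelial markers 1 was listed and lower. In RNA from a whole culture, fewer cells that express a gene and less of its RNA per cell cannot be told apart.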

How the data were processed

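Abundance values of CLBL-1 and CLBL-1 8.0 came from the authors' deposited comparison table, per gene and line, as a signal of unstated unit. They are not whole numbers and may be FPKM or TPM. HISAT2, StringTie and the build CanFam3.1 are named without versions in the submitters' processing notes. The deposited log2 fold changes are the authors', per the file headers, and match the log2 ratio of CLBL-1 8.0 to CLBL-1 with nothing added. The p-value and count of genes per term are the authors' too, per the file headers, and no source used here names their tool or adjustment. Because the authors selected the rows by a rule that no source used here gives, the listed values are no library totals and the depth is unknown, so no counting interval was computed.

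Members were matched by gene ID and grouped by role. Of the members, 32 are named with both values, and the values of 1 are counted but not reported here. Differences used a pseudocount of 1, with no filter on low values. With 1 sample per line no test was made, and a 2-fold limit stands in for calls. Rows within 1 Mb were taken between gene midpoints. All 33 gene IDs were found in the table of assembly UU_Cfam_GSD_1.0, used for names and overlaps only. The members, roles and lists were chosen with earlier results of these data known, and some symbols were moved between or added to roles after the files were seen. Values of MAP2K3, PIK3CD, ATF2, DUSP1, LOC111097516, PTPRQ, CALML4 and the listed regulators and targets are given besides the members. Arithmetic was tested on simulated data. Python 3.11.15 with pandas 2.3.3, NumPy 2.4.6 and matplotlib 3.10.9 was used.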

Additional observations from a re-analysis of the deposited data

How the results depend on the processing

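No paired analysis was possible because each line has 1 sample, and for the same reason no replicate could be left out. The counts of members higher (25) and lower (8) were the same under every pseudocount tried and with equal upper quartiles (a shift of 0.33 on the log2 scale). That sameness was fixed in advance and is no check. A pseudocount cannot change a sign, and every member had a deposited log2 fold of at least 0.68 in absolute size, above that shift. Centring on the median of all rows (0.73) gave 22 and 11, and reversed MAPT (-0.12), DUSP3 (-0.050) and ELK1 (-0.039), which by construction were positive and below that median. No other member was reversed under any setting. Members lower numbered 5 of 29 with a mean of at least 5 and 3 of 23 with a higher value of at least 10. They numbered 2 of 16 in the MAPK term alone and 16 of 51 with no exclusions, where 34.8% of all rows were lower. The share of all rows under the same limits on values was not computed, so counts under those limits have no background. Members higher numbered 14 of 16 in the MAPK term alone and 14 of 21 in the Ras term alone, where 65.2% of all rows were higher. The 2-fold counts moved most: of 33, higher members numbered 4 with a pseudocount of 5, 5 with equal upper quartiles and 1 when centred. They numbered 7 of 23 with a higher value of at least 10 and 5 of 16 in the MAPK term. Lower members at that limit numbered, of 33, 1 with a pseudocount of 5, 5 with equal upper quartiles and 8 when centred. They numbered 0 of 16 in the MAPK term and 7 of 51 with no exclusions. With the pseudocount of 1, 24.1% of all rows were higher and 14.4% lower at this limit. The shares over all rows moved too: at this limit 11.4% were higher and 8.91% lower with a pseudocount of 5, 12.5% and 31.0% with equal upper quartiles, and 5.26% and 34.8% when centred. The median of members, 0.82, was 0.83 with a pseudocount of 0.5, 0.61 with 5, 0.85 without one, 0.51 with equal upper quartiles and 0.084 when centred. It was 0.82 with a mean of at least 5, 0.83 in the MAPK term, 0.77 in the Ras term and 0.77 with no exclusions. Depth is unknown, so how far counting error limits the members with low values cannot be given.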
